A study of Mus musculus with 9 samples.

Results

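The genes described here encode the enzymes of hepatic gluconeogenesis that glycolysis does not share, the transporter and the receptor that serve the pathway, and transcriptional regulators of it. They are 9 genes, Pck1, G6pc, Fbp1, Pcx, Slc37a4, Ppargc1a, Gcgr, Creb3l3 and Crtc2, listed by name with earlier results of these data known. A probe belonged to the set if its RefSeq accession mapped to 1 of these symbols. This gave 11 probes of the 55681 probes on the array, 2 each for Ppargc1a and Crtc2 and 1 for each other gene, and all 11 lay well above background on all 9 arrays. All 9 genes were therefore among the 13386 genes tested.

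The livers came from male mice that were 20 weeks old, and each mouse had its own 1-colour Agilent array, with 3 mice in each of 3 groups. STAM mice, a non-obese diabetic model of fatty liver disease that progresses to liver cancer, were C57B/6J males given streptozotocin as newborns, which damages the insulin-producing cells of the pancreas, and fed a high-fat diet from weaning. STAM-NON mice were STAM mice left untreated, and STAM-INS mice were STAM mice injected subcutaneously with insulin glargine at a dose adjusted to blood glucose. Normal mice received neither streptozotocin nor the high-fat diet and were kept on chow, so every difference between STAM and Normal mice covers both agents. The liver of STAM mice at this age can hold tumours. Whether the pieces taken held tumour, and how long before sampling the mice had eaten or been injected, is not given in the sources used here. All 6 STAM arrays shared 1 slide and scan, and the 3 Normal arrays lay on the other slide and scan. A difference between STAM and Normal therefore cannot be told apart from one between slides and scans, whereas STAM-INS and STAM-NON were compared within 1 slide.

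Gluconeogenesis builds glucose in the liver from lactate, amino acids and glycerol during fasting. Glucagon acts through its receptor and cyclic AMP to induce the pathway's genes, with CREB and its coactivators at their promoters, and insulin opposes this by excluding Foxo1 from the nucleus and by restraining the coactivators. Transcripts of Pck1 and G6pc in particular are known to rise within hours of fasting and to fall after feeding or insulin, and loss of this restraint contributes to high blood glucose in diabetes.

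The promoter windows of 3 members are shown because Pck1 and G6pc are the classical targets of this control and Ppargc1a encodes a coactivator induced through it. Each window runs from 250 bases before to 50 bases after the RefSeq start site in GRCm38.p6, 5′ to 3′ on the gene's strand. Capitals mark the half-site of the cyclic AMP response element (TGACG, read on the other strand as CGTCA) and the TATA box (TATAAA). The windows lie at chr2:173152823-173153122 on the plus strand for Pck1, chr11:101367466-101367765 on the plus strand for G6pc and chr5:51567676-51567975 on the minus strand for Ppargc1a.
Pck1: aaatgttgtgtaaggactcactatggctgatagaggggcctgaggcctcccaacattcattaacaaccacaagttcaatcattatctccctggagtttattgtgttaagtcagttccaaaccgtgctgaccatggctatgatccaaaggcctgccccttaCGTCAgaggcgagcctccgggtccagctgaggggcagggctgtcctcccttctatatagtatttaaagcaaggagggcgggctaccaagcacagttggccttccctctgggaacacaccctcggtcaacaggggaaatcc
G6pc: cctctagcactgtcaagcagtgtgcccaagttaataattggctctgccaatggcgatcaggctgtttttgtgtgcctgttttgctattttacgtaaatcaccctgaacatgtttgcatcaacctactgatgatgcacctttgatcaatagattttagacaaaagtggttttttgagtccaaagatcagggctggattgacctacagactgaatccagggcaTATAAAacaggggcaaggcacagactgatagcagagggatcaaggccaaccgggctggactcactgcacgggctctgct
Ppargc1a: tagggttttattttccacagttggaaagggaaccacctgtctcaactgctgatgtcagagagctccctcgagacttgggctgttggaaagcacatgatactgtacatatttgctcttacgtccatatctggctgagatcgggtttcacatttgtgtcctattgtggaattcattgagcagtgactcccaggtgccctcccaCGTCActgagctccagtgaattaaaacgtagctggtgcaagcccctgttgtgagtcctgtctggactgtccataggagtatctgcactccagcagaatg

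Counted from the start site, the half-site began at position -90 in Pck1 and -49 in Ppargc1a, and the TATA box of G6pc began at -29. All 5 motifs named here were searched on both strands of the 12 windows of the 9 genes. The half-site was found in 5 of the 12 windows, in Creb3l3, Pck1, Ppargc1a and Slc37a4, and in 20.81% of 32851 promoter windows of the same length. Windows 1 and 2 of Slc37a4 overlap, and the half-site at -61 in window 1 and at -214 in window 2 is the same site, counted in both. The full element TGACGTCA, which contains the half-site on both strands, was in none of the 12 and in 1.79% of all windows. The exact letters TGTTTAC of the Foxo core were likewise in none, against 3.65% of all windows. The TATA box was in 2 of the 12, in G6pc and Slc37a4, against 13.62% of all windows, and the glucocorticoid receptor half-site AGAACA was in Creb3l3 alone, against 18.97%. A match describes the letters in a window and not a bound site. Variants of the letters were not searched, so a window without a match may still hold a site.

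Values below are centred log2 signals: each array's background-subtracted signals were put on the log2 scale and its 75th percentile was subtracted, so that a difference of 1 is a 2-fold difference. Since probes differ in brightness, levels are set side by side within a gene only. A gene was called where limma's adjusted p was under 0.05. None of the 9 genes was called in any of the 3 comparisons. Over all 13386 genes tested, 16.8% were called between STAM-NON and Normal, 0.0822% between STAM-INS and STAM-NON, and 13.6% between STAM-INS and Normal. At an unadjusted p under 0.05 there were 3 members, Gcgr, Crtc2 and Slc37a4, between STAM-NON and Normal, none between STAM-INS and STAM-NON, and 4, Crtc2, Pck1, Creb3l3 and Slc37a4, between STAM-INS and Normal. The corresponding counts over all genes were 4840, 1248 and 4293. The methods' t-test with Benjamini-Hochberg adjustment called 0, 0 and 1 member, the last being Creb3l3. By the same procedure 13, 0 and 1435 of all 13386 genes were called, so the call of Creb3l3 fell in the comparison with the most calls. The median difference of the 9 genes was -0.11, -0.04 and -0.25 in these comparisons, against -0.11, 0.03 and -0.07 over all genes.

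Pck1 encodes cytosolic phosphoenolpyruvate carboxykinase, which forms phosphoenolpyruvate from oxaloacetate. On the 3 Normal arrays its centred log2 signal was 8.50, 8.37 and 8.60, on the STAM-NON arrays it was 8.67, 8.65 and 7.82, and on the STAM-INS arrays it was 8.01, 8.03 and 7.60. In STAM-NON mice 2 arrays lay above all Normal arrays and the other below them, and all STAM-INS arrays lay below all Normal arrays. The mean was 8.49 ± 0.12 (SD, n = 3) in Normal, 8.38 ± 0.48 in STAM-NON and 7.88 ± 0.24 in STAM-INS. STAM-INS was lower than STAM-NON by a difference of -0.50, with a 95% confidence interval from -1.04 to 0.04 and limma's adjusted p of 0.587. It was -0.78 without STAM-NON replicate 3 (adjusted p = 0.129), and with any other array left out it lay between -0.58 and -0.36. Against Normal the difference was -0.61 in STAM-INS, which is 1.53-fold lower (interval -1.15 to -0.07, limma's adjusted p = 0.117), and -0.11 in STAM-NON (-0.65 to 0.43, limma's adjusted p = 0.766). Without STAM-NON replicate 3 the last difference turned to 0.17, and it turned to between 0.07 and 0.20 under 3 other scalings of the arrays. Leaving out that same array also brought Pck1 in STAM-INS against Normal past the threshold (limma's adjusted p = 0.0325). The groups share 1 estimate of the spread and 1 set of tested probes, and which of these changed the call was not tested.

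G6pc encodes the catalytic subunit of glucose-6-phosphatase, which releases free glucose in the last step of the pathway. Its centred log2 signal was 5.94, 6.60 and 5.80 on the Normal arrays, 6.54, 6.85 and 5.50 on the STAM-NON arrays, and 7.0, 7.16 and 5.99 on the STAM-INS arrays. The 3 groups overlapped, and G6pc had the largest SD of the 9 genes in each of them. Means were 6.11 ± 0.43 (SD, n = 3) in Normal, 6.30 ± 0.71 in STAM-NON and 6.72 ± 0.64 in STAM-INS. The difference between STAM-INS and STAM-NON was 0.42, with an interval from -0.55 to 1.39 (limma's adjusted p = 0.817). It was 0.0198 without STAM-NON replicate 3, 0.19 without STAM-INS replicate 2, 0.28 without STAM-INS replicate 1, 0.70 without STAM-NON replicate 2 and 0.78 without STAM-INS replicate 3. With 3 arrays per group the data thus leave room for a fall to -0.55 or a rise to 1.39. Against Normal the differences were 0.19 (-0.79 to 1.16) in STAM-NON and 0.61 (-0.37 to 1.58) in STAM-INS. Without STAM-NON replicate 2 the first of these turned to -0.09.

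Pck1 and G6pc differed in the sign of their mean difference between STAM-INS and STAM-NON, and within both STAM groups they varied together. Replicate 3 held the lowest value of both genes in STAM-NON and again in STAM-INS, where the number only names a mouse and does not pair mice across groups. Pearson's r between both genes was 0.15 over the 9 arrays and 0.76 after each group's mean was removed. In Normal the order was opposite, with G6pc highest on the array where Pck1 was lowest, so the latter value rests on the STAM arrays. Both are descriptions over 9 arrays scaled the same way, 6 of them on 1 slide. For Pck1 and Fbp1 the same values were 0.24 and 0.76.

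**Figure D1:**
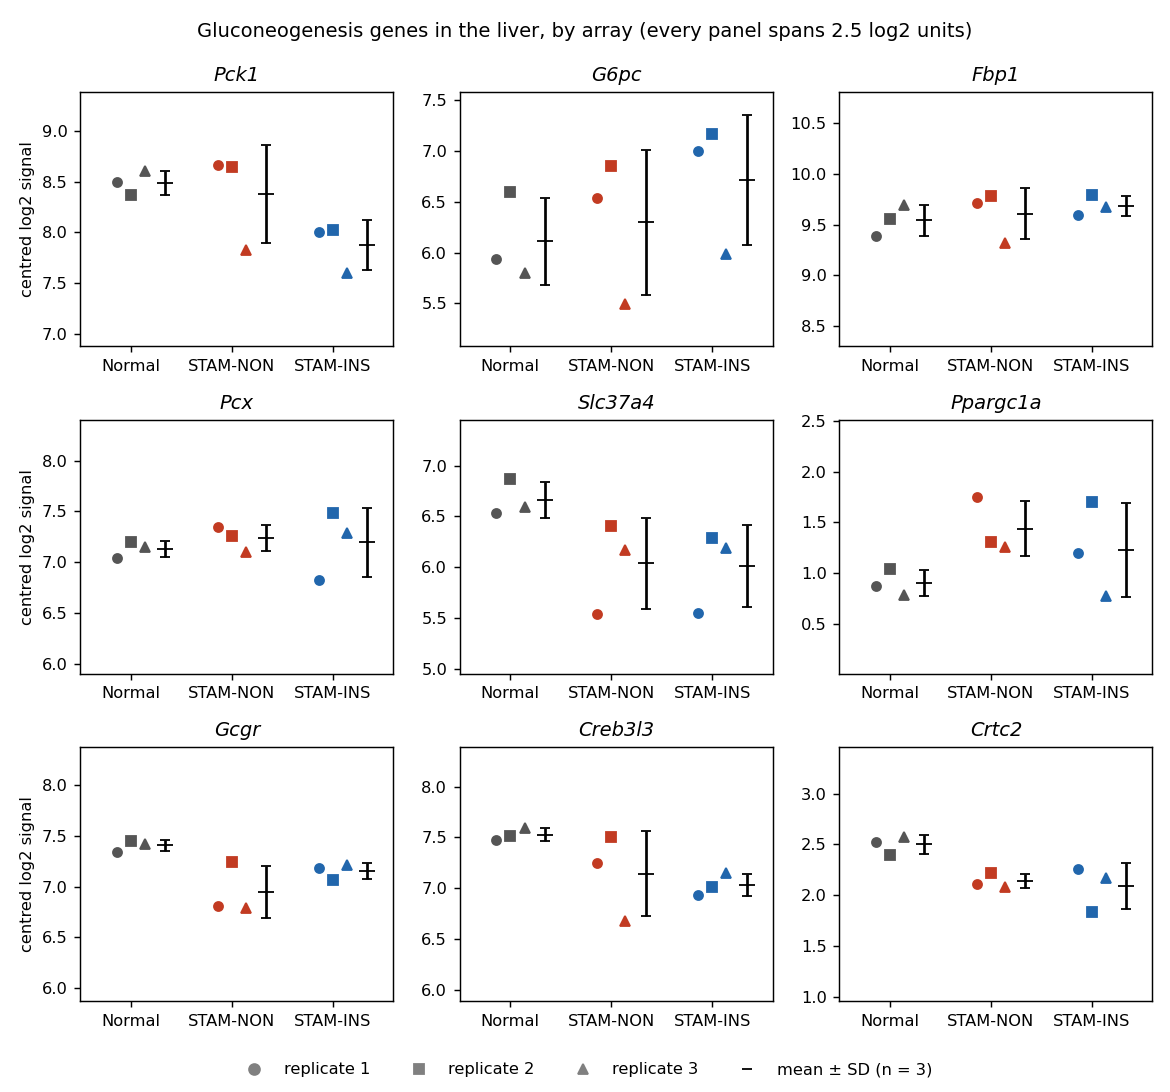
Centred log2 signal (vertical axis) of each of the 9 genes on every array, by group (horizontal axis); marker shape gives the replicate number within a group and bars the mean ± SD (n = 3). STAM-INS lies below Normal on all arrays for Pck1, Slc37a4, Gcgr, Creb3l3 and Crtc2, and replicate 3 is the lowest array for Pck1 and G6pc in both STAM groups.

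Neither of the other 2 enzymes separated any of the groups. Fbp1, fructose-1,6-bisphosphatase, had centred log2 signals of 9.39, 9.55 and 9.69 in Normal, 9.71, 9.79 and 9.32 in STAM-NON and 9.60, 9.79 and 9.67 in STAM-INS. Pcx, pyruvate carboxylase, which makes oxaloacetate in the mitochondrion, had 7.04, 7.20 and 7.15 in Normal, 7.35, 7.26 and 7.10 in STAM-NON and 6.82, 7.48 and 7.29 in STAM-INS. The difference between STAM-INS and STAM-NON was 0.08 for Fbp1 (95% interval -0.27 to 0.43) and -0.04 for Pcx (-0.43 to 0.35). Against Normal, Fbp1 differed by 0.06 in STAM-NON (-0.28 to 0.41) and 0.14 in STAM-INS (-0.20 to 0.49). For Pcx the difference from Normal was 0.11 (-0.28 to 0.50) in STAM-NON and 0.07 (-0.32 to 0.46) in STAM-INS.

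Slc37a4 encodes the glucose-6-phosphate translocase, which carries the substrate of glucose-6-phosphatase into the endoplasmic reticulum. Centred log2 signals were 6.53, 6.87 and 6.59 in Normal, 5.54, 6.40 and 6.17 in STAM-NON and 5.55, 6.29 and 6.19 in STAM-INS, so every STAM array lay below every Normal array. The difference from Normal was -0.62 in STAM-NON, 1.54-fold lower, with an interval from -1.23 to -0.02 and limma's adjusted p of 0.13, and -0.65 in STAM-INS, 1.57-fold lower, with an interval from -1.26 to -0.05 and limma's adjusted p of 0.129. With 1 array left out the difference of STAM-NON from Normal ran from -0.81 to -0.38. STAM-INS and STAM-NON differed by -0.03 (-0.63 to 0.58).

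Gcgr, the glucagon receptor, had centred log2 signals of 7.34, 7.45 and 7.42 in Normal, 6.81, 7.24 and 6.79 in STAM-NON and 7.18, 7.06 and 7.21 in STAM-INS. Both STAM groups lay wholly below Normal. In STAM-NON the difference from Normal was -0.46, 1.37-fold lower (interval -0.78 to -0.14), and limma's adjusted p of 0.058 was the lowest of any member in that comparison. It passed the threshold, with an adjusted p of 0.0169, without STAM-NON replicate 2, and fell back to a difference of -0.14 when the arrays were scaled on spike-in controls. In STAM-INS the difference from Normal was -0.25 (-0.57 to 0.07, limma's adjusted p = 0.246), and STAM-INS exceeded STAM-NON by 0.20 (-0.12 to 0.52, limma's adjusted p = 0.717).

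Creb3l3 encodes CREB-H, a membrane-bound transcription factor of hepatocytes that is released by fasting and endoplasmic reticulum stress. Its centred log2 signal was 7.47, 7.51 and 7.59 in Normal, 7.24, 7.50 and 6.68 in STAM-NON and 6.94, 7.01 and 7.15 in STAM-INS. The STAM-INS arrays all lay below Normal, while 1 STAM-NON array reached the Normal range. The difference from Normal was -0.49 in STAM-INS (-0.94 to -0.04, limma's adjusted p = 0.124) and -0.38 in STAM-NON (-0.83 to 0.07, limma's adjusted p = 0.196). With 1 array left out the latter ran from -0.56 to -0.15. Without STAM-NON replicate 3, Creb3l3 passed the threshold in STAM-INS against Normal with limma's adjusted p of 0.0322.

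Crtc2, the CREB coactivator that glucagon signalling sends to the nucleus, had centred log2 signals of 2.53, 2.39 and 2.58 in Normal, 2.11, 2.22 and 2.08 in STAM-NON and 2.26, 1.84 and 2.17 in STAM-INS on its brighter probe. Every STAM array lay below every Normal array. The difference from Normal was -0.36 in STAM-NON (-0.67 to -0.05, limma's adjusted p = 0.0962) and -0.41 in STAM-INS (-0.72 to -0.10, limma's adjusted p = 0.0758). The dimmer probe gave smaller differences of -0.18 and -0.29. Ppargc1a, the coactivator PGC-1α, was the only member whose STAM-NON arrays all exceeded Normal. Its brighter probe read 0.88, 1.04 and 0.79 in Normal, 1.75, 1.31 and 1.26 in STAM-NON and 1.20, 1.71 and 0.78 in STAM-INS. The difference of STAM-NON from Normal was 0.54, 1.45-fold higher (limma's adjusted p = 0.142), and the dimmer probe gave 0.46. STAM-INS differed from STAM-NON by -0.21 (-0.75 to 0.33, limma's adjusted p = 0.835).

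Counted by groups that do not overlap, 1 member was higher in STAM-NON than in Normal, against 14.9% of all genes, and 3 were lower, Slc37a4, Gcgr and Crtc2, against 26.0% of all genes. In STAM-INS against Normal, 0 members were higher, against 17.6% of all genes, and 5 were lower, Pck1, Slc37a4, Gcgr, Creb3l3 and Crtc2, against 27.3%. Between STAM-INS and STAM-NON the groups overlapped for all 9 members, where 7.77% of all genes were higher and 4.89% lower without overlap. Calls by limma over all genes split into 7.87% higher and 8.93% lower in STAM-NON and 6.15% higher and 7.49% lower in STAM-INS, each against Normal.

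**Figure D2:**
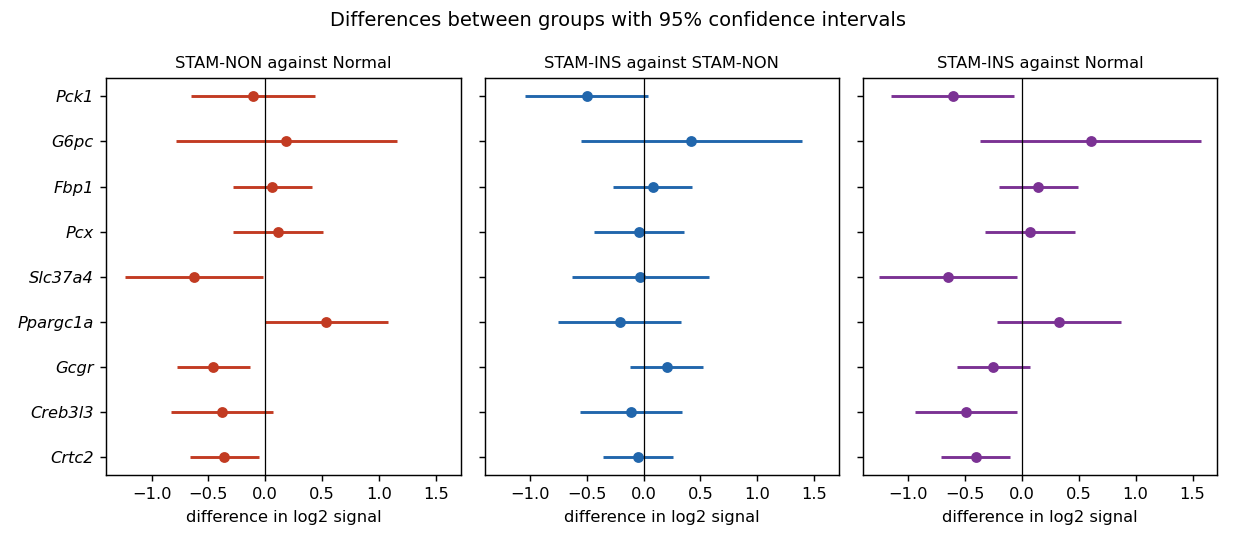
Difference in log2 signal (horizontal axis) of the 9 genes in the 3 comparisons, with limma's 95% confidence intervals. Points right of 0 are higher in the group named first, and the interval of Pck1 between STAM-INS and STAM-NON runs from -1.04 to 0.04.

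The size of every difference from Normal depended on how the arrays were scaled. The median of all genes in STAM-NON against Normal was -0.11 with the 75th percentile, 0.20 with spike-in controls and -0.01 with quantile normalisation. Genes called in that comparison numbered 1054 higher and 1195 lower with the 75th percentile, 1590 and 211 with spike-in controls, 1325 and 457 with the percentile of detected probes, and 971 and 627 after quantile normalisation. Under these scalings Pck1 changed sign in STAM-NON against Normal, whereas Slc37a4, Gcgr, Creb3l3 and Crtc2 stayed below Normal and G6pc, Fbp1, Pcx and Ppargc1a above it in both STAM groups. With spike-in scaling the difference of Slc37a4 in STAM-NON was -0.31.

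**Figure D3:**
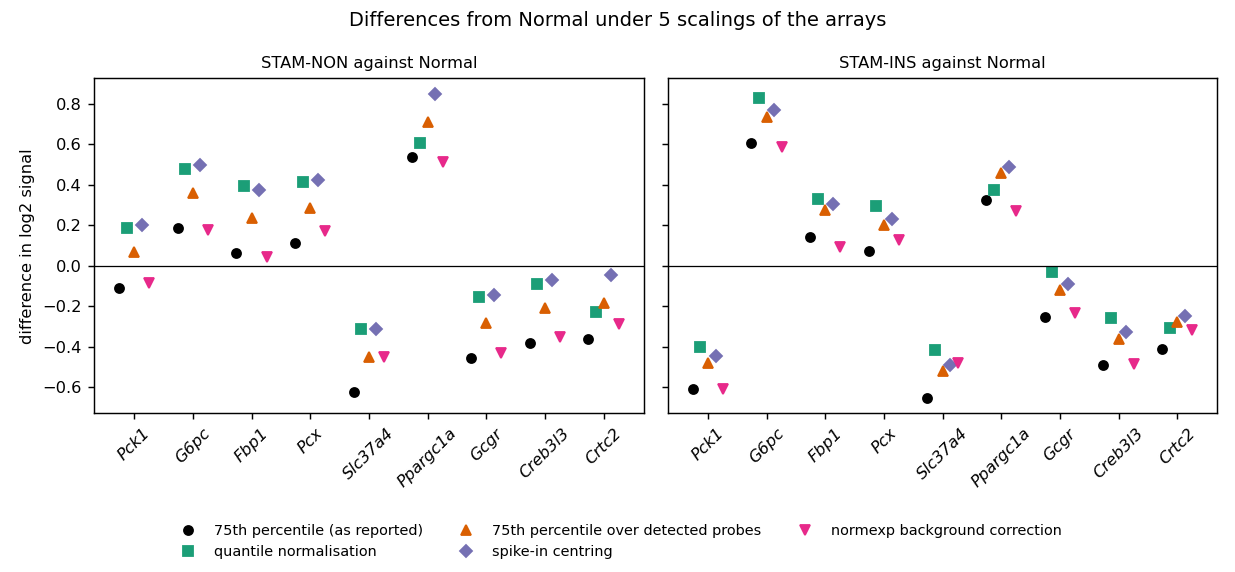
Difference in log2 signal from Normal (vertical axis) of the 9 genes (horizontal axis) in STAM-NON and STAM-INS, under the 75th percentile scaling used here and 4 alternatives, with marker shape for the scaling. Slc37a4, Gcgr, Creb3l3 and Crtc2 lie below 0 under all 5, and Pck1 in STAM-NON lies on either side of 0.

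The wider pathway was examined in lists of genes fixed by name. Over all genes, 8.93% were called lower in STAM-NON and 7.49% in STAM-INS, each against Normal. Substrate entry covers lactate, alanine, glycerol and the mitochondrial shuttles, and 23 of its 24 genes were tested. In STAM-NON against Normal 2 fell, Mdh1, cytosolic malate dehydrogenase (difference -0.77, limma's adjusted p = 0.0319), and Mpc2, a subunit of the mitochondrial pyruvate carrier (difference -0.45, limma's adjusted p = 0.0491). In STAM-INS against Normal 2 fell as well, Gpt, alanine aminotransferase (difference -1.20, limma's adjusted p = 0.0193), and Mpc2 (difference -0.48, limma's adjusted p = 0.0454). Gpt read 6.63, 7.16 and 6.71 in Normal, 6.50, 6.30 and 5.64 in STAM-NON and 5.87, 5.42 and 5.59 in STAM-INS, and no STAM array reached Normal. Mpc2 and Mdh1 met their call in 2 of the 5 scalings, and Gpt in 4 of 5. With arrays left out 1 at a time, Mpc2 met its call only without STAM-NON replicate 2 in STAM-NON and only without STAM-NON replicate 3 in STAM-INS (adjusted p otherwise up to 0.141 and 0.151). Mdh1 lost its call without STAM-NON replicate 1, STAM-INS replicate 2 or 3 or any Normal array (up to 0.0942), and Gpt lost its call without STAM-INS replicate 2 or 3 or Normal replicate 2 or 3 (up to 0.0787). Without STAM-NON replicate 3, Mdh1 was also called in STAM-INS against Normal (limma's adjusted p = 0.0138). The median of the list was -0.14, -0.04 and -0.24 in STAM-NON against Normal, STAM-INS against STAM-NON and STAM-INS against Normal. Pck2, the mitochondrial phosphoenolpyruvate carboxykinase, was well above background on 3 arrays only and was not tested.

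No gene was called in the list of reversible steps shared with glycolysis or in that of opposing steps. The 7 enzymes of the reversible steps had medians of 0.17, 0.01 and 0.19 in STAM-NON against Normal, STAM-INS against STAM-NON and STAM-INS against Normal. The 6 genes of the opposing steps described here had medians of -0.10, 0.08 and 0.15 in the same order.

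Of the transcriptional and signalling regulators 30 of 33 were tested, and Foxo3, Nr4a3 and Cry1 were not. In STAM-NON 2 fell against Normal, Ppargc1b (difference -0.73, limma's adjusted p = 0.0419) and Stk11, the kinase LKB1 that activates AMPK (difference -0.44, limma's adjusted p = 0.0451). In STAM-INS 4 fell against Normal. The shares of all genes called lower were 8.93% in STAM-NON and 7.49% in STAM-INS. Ppargc1b, the coactivator PGC-1β, read -0.54, -0.46 and -0.27 in Normal, -0.90, -0.95 and -1.63 in STAM-NON and -1.78, -2.0 and -1.87 in STAM-INS, with no overlap between any of the groups, and the STAM-INS difference from Normal was -1.46 (limma's adjusted p = 0.00474). Cry2, a clock repressor known to dampen cyclic AMP signalling, read 3.93, 3.75 and 3.96 in Normal, 3.74, 3.72 and 3.56 in STAM-NON and 3.20, 2.81 and 2.85 in STAM-INS. The STAM-INS arrays lay below all others, and the difference from Normal was -0.93 (limma's adjusted p = 0.00622). Klf15, a factor of amino acid catabolism that fasting induces, differed by -0.92 (limma's adjusted p = 0.0172). Foxo1, the insulin-restrained factor named above, differed by -0.64 (limma's adjusted p = 0.0326), with 3.38, 3.33 and 3.42 in Normal, 3.11, 2.99 and 3.15 in STAM-NON and 2.43, 3.04 and 2.74 in STAM-INS. Its call was met in 1 of the 5 scalings that of Stk11 in 2 and that of Ppargc1b in STAM-NON in 3, while Ppargc1b, Cry2 and Klf15 in STAM-INS met theirs in all 5. With arrays left out 1 at a time, Ppargc1b and Cry2 in STAM-INS kept their call throughout. Klf15 lost it without STAM-INS replicate 3 or Normal replicate 2 or 3 (adjusted p up to 0.0653), and Foxo1 lost it without STAM-NON replicate 2, STAM-INS replicate 1 or 3 or any Normal array (up to 0.101). Ppargc1b and Stk11 in STAM-NON were called only without STAM-NON replicate 2 (otherwise up to 0.124 and 0.127). Between STAM-INS and STAM-NON none of the 30 was called, and the differences were -0.72 for Cry2 (limma's adjusted p = 0.221) and -0.73 for Ppargc1b (limma's adjusted p = 0.428, and 0.0397 without STAM-NON replicate 3). The comparisons with Normal share the Normal arrays.

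The other regulators always described were not called. Irs2, an insulin receptor substrate, differed by 0.13 between STAM-INS and STAM-NON (-0.94 to 1.19). Hnf4a, the hepatocyte factor at these promoters, differed by 0.13 (-0.26 to 0.52), and Nr0b2, the bile acid-responsive repressor SHP, by -0.19 (-1.57 to 1.18). Against Normal the differences of Irs2, Hnf4a and Nr0b2 were 0.12, -0.22 and -0.61 in STAM-NON and 0.25, -0.09 and -0.80 in STAM-INS, and the lowest of limma's adjusted p was 0.373. The sign of Hnf4a's difference from Normal turned under quantile and spike-in scaling.

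Of the 6 listed targets of Creb3l3, 2 rose in both STAM groups against Normal. The shares of all genes called higher were 7.87% in STAM-NON and 6.15% in STAM-INS. Fgf21, a fasting hormone of the liver, read -0.91, -2.14 and -1.32 in Normal, 2.36, 1.39 and 1.08 in STAM-NON and 1.64, 1.27 and 2.91 in STAM-INS, with no overlap between STAM and Normal. The rise over Normal was 3.07 in STAM-NON and 3.40 in STAM-INS (limma's adjusted p = 0.0125 and 0.00676). Apoa4, an apolipoprotein of triglyceride-rich particles, read 3.04, 3.03 and 3.50 in Normal, 7.19, 5.19 and 7.32 in STAM-NON and 5.37, 7.30 and 5.56 in STAM-INS, and rose by 3.38 (limma's adjusted p = 0.0174) and 2.89 (limma's adjusted p = 0.026). Both were called under all 5 scalings, and Fgf21 also without any 1 of the 9 arrays. Apoa4 lost its call in STAM-NON without STAM-NON replicate 1 or 3 or any Normal array (adjusted p up to 0.0574), and in STAM-INS without STAM-INS replicate 2 or 3 or any Normal array (up to 0.0815). Between STAM-INS and STAM-NON neither was called, with differences of 0.33 and -0.49. The other 4 targets tested were not called. Among them Hamp, the iron hormone hepcidin, chosen after its values were seen, read 7.89, 7.44 and 6.26 in Normal, 5.46, 4.62 and -2.54 in STAM-NON and 7.20, -3.01 and 3.43 in STAM-INS, with limma's adjusted p of 0.245 and 0.268 against Normal. Its probe may share signal with the near-identical copy Hamp2. Of the 5 isozymes of the members, 3 were tested, and Fbp2 and G6pc2 were not. Slc37a1, a relative of the glucose-6-phosphate translocase, was higher by 1.63 in STAM-INS than in Normal (limma's adjusted p = 0.0321), a call that held under all 5 scalings but only without STAM-NON replicate 1, STAM-NON replicate 3 or Normal replicate 2 when arrays were left out 1 at a time (adjusted p up to 0.114).

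**Figure D4:**
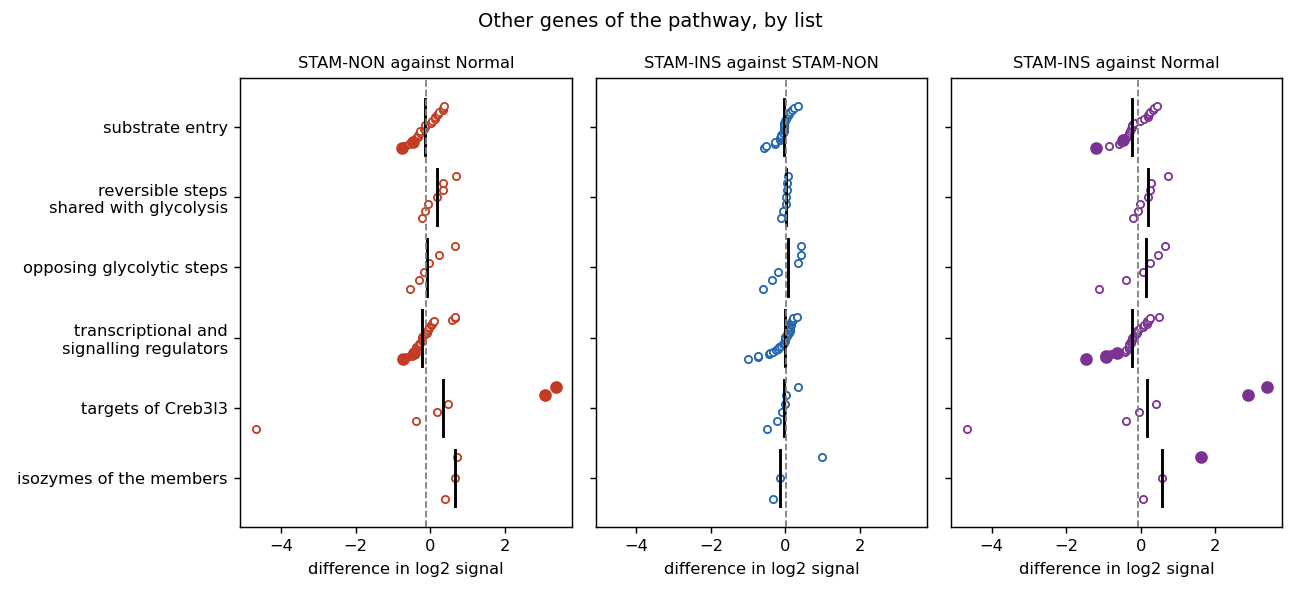
Difference in log2 signal (horizontal axis) of each tested gene of the 6 lists (vertical axis) in the 3 comparisons. Filled points passed limma's adjusted p of 0.05 and open points did not, the black bar is the median of a list and the dashed line the median of all genes tested. No gene is filled between STAM-INS and STAM-NON.

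The genes whose signal followed the members most closely over the 9 arrays are a description only. For Pck1 they were Krtap9-1 (Pearson's r = 0.95), Slc25a34 (0.93) and Rab30 (0.93). For G6pc they were Slc25a15, the mitochondrial ornithine carrier of the urea cycle (0.93), Tat, tyrosine aminotransferase (0.90), and Srek1ip1 (0.89). For Fbp1 they were Kctd9 (0.89), Prm2 (0.88) and Calm3 (0.86).

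Markers of the labelled tissue were present, with all 7 hepatocyte markers well above background on all arrays. Their summed level, on the linear scale in multiples of the 75th percentile, was 4708 to 5099 in Normal, 3391 to 4427 in STAM-NON and 3998 to 4458 in STAM-INS. Sums of this kind, here and below, mostly follow the brightest markers of a list. Gluconeogenic enzymes are richest in periportal hepatocytes. The 7 periportal markers summed to 1620 to 1843 in Normal, 893.1 to 1343 in STAM-NON and 1170 to 1429 in STAM-INS. Of these markers, 3 were called lower in STAM-NON and 2 in STAM-INS against Normal. Over all genes, 8.93% and 7.49% were called lower in these comparisons. The 7 pericentral markers summed to 1191 to 1258, 446.1 to 924.8 and 448.1 to 825.1 in the same order, and 1 was called lower in each STAM group. The brightest of them was Cyp2e1, with a mean centred log2 signal of 10.02 in Normal. Median differences from Normal in STAM-NON and STAM-INS were -0.88 and -0.78 for pericentral and -0.42 and -0.41 for periportal markers. Of the 7 hepatocyte markers 1 was called lower in each STAM group. Macrophage markers summed to 45.89 to 64.99 in Normal, 77.45 to 124.5 in STAM-NON and 70.94 to 138.4 in STAM-INS. Cholangiocyte markers summed to 1.585 to 2.844 in Normal, 3.68 to 9.207 in STAM-NON and 3.492 to 5.412 in STAM-INS. Stellate cell and fibroblast markers summed to 6.968 to 13.5, 16.16 to 33.06 and 9.605 to 25.67 in the same order. None of these 6 was called against Normal, with median differences of 1.11 in STAM-NON and 0.48 in STAM-INS. Of the 5 macrophage markers tested, 3 were called higher than Normal in each STAM group. Of the 4 cholangiocyte markers tested, 3 were called higher in STAM-NON and 1 in STAM-INS. The summed levels of endothelial and of lymphocyte markers overlapped between all groups. Of the 3 lymphocyte markers tested, only Ptprc, the leukocyte antigen CD45, was called. It rose by 1.09 in STAM-NON and by 1.15 in STAM-INS over Normal (limma's adjusted p = 0.0317 and 0.0284). The others, Cd3e and Nkg7, differed from Normal by -0.24 and -0.07 in STAM-NON and by 0.08 and -0.21 in STAM-INS. Over all genes, 7.87% were called higher in STAM-NON and 6.15% in STAM-INS, each against Normal. None of the 4 adipocyte markers passed the background flag in Normal, while all but Lep passed it on some STAM-NON array and all but Lep and Plin1 on some STAM-INS array. Their summed level was 0.07428 to 0.1414 in Normal, 0.1373 to 0.6957 in STAM-NON and 0.07153 to 0.1425 in STAM-INS. Of the 5 kidney and gut epithelium markers Umod and Lct were well above background on no array, while Fabp2 was on all arrays. Its mean centred log2 signal was 6.20 in Normal, 6.58 in STAM-NON and 6.46 in STAM-INS. The list summed to 59.14 to 86.49 in Normal, 54.3 to 133.6 in STAM-NON and 79.23 to 100.5 in STAM-INS. The part of these shifts in the members' differences was not tested, and in bulk tissue fewer cells of a type and less RNA per cell cannot be told apart.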

How the data were processed

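Arrays were scanned and read by Agilent Feature Extraction 11.5.1.1, as stated in the submitters' processing notes. The files deposited by the authors give each spot's intensity on a linear scale after background subtraction, not normalised between arrays, and no normalisation or test for the arrays is named in the methods. The array design was built on mm9. RNA kits differ between the labels and the methods. Control spots and those flagged as outliers were dropped, spots of a probe were averaged, and intensities were taken as log2 minus the 75th percentile of the array. Accessions named 27656 of 55681 probes through a RefSeq table of GRCm38.p6, used for names and promoter windows only. All 9 members matched.

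Testing required that the background flag was passed by a share of 0.5 or more of a probe's spots on all 3 arrays of some group, which left 26278 probes. Groups were taken from the labels. The two-sided test was that of limma (version 3.58.1, R version 4.3.3) over all 9 arrays with 6 residual degrees of freedom, with Benjamini-Hochberg adjustment over all probes tested. A gene counts by its probe with the highest mean. The number of arrays, 3 per group, limits the precision. The fit was tested on simulated data.

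The members and the gene and marker lists were chosen with earlier results of these data known. Named from each list were genes past the threshold, at most 4 per list and comparison with the largest difference, together with Foxo1, Irs2, Pck2, Hnf4a and Nr0b2, and the 3 genes most correlated with Pck1, G6pc and Fbp1. A further gene of the lists is not reported here. Alternatives covered scaling, background correction (normexp with offset 50, on median signal and median background, as the mean signal first planned for was not used here), the filter, outlier spots, the fit, the methods' t-test, averaging of probes, the replicate number as a block, a threshold of 0.1 and each array left out.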

Additional observations from a re-analysis of the deposited data

How the results depend on the processing

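No member was called between STAM-INS and STAM-NON under any alternative run. In STAM-NON against Normal 1 member (Gcgr) was called after normexp background correction and with eBayes using trend and robust, 2 (Crtc2 and Gcgr) at an adjusted p under 0.1, and 0 to 1 with arrays left out 1 at a time (Gcgr, without STAM-NON replicate 2). In STAM-INS against Normal 2 (Creb3l3 and Pck1) were called in a fit to the 6 arrays compared, 1 (Creb3l3) by the methods' t-test, 1 (Crtc2) at an adjusted p under 0.1, and 0 to 2 with arrays left out (Creb3l3 and Pck1, without STAM-NON replicate 3). The cause was not tested. Over all genes, calls in STAM-NON against Normal numbered 2249, and 2566 after normexp background correction and 2777 with eBayes using trend and robust. They numbered 112 without a filter on dim probes, 1151 in a fit to the 6 arrays and 13 by the methods' t-test. At 0.1 they numbered 3919, and with arrays left out 473 to 3161. In STAM-INS against Normal they numbered 1825, and 2732 in a fit to the 6 arrays and 1435 by the methods' t-test. They numbered 302 without the filter, 1204 with spike-in centring, 3176 at 0.1 and 529 to 2204 with arrays left out. Between STAM-INS and STAM-NON they numbered 11, and 2 without the filter, 5 with probes well above background on all arrays, 3 in a fit to the 6 arrays, 0 by the methods' t-test, 17 at 0.1 and 5 to 51 with arrays left out. Unadjusted, the methods' t-test passed 3767, 791 and 4626 genes at 0.05 in STAM-NON against Normal, STAM-INS against STAM-NON and STAM-INS against Normal. The slide as a block could not be fitted against Normal and was not run.

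Replicate numbers did not pair the mice: deviations of same-numbered arrays correlated between -0.288 and 0.149, and in 3 of 9 comparisons of an array with another group it correlated best with its own number. With the replicate block 0 members were called in each comparison, the lowest adjusted p being 0.0608, 0.631 and 0.0577, and genes called numbered 1078, 2 and 959.

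Some differences changed sign. With quantile normalisation, the difference in STAM-NON against Normal was 0.19 for Pck1 and 0.0638 for Hnf4a. With the 75th percentile over detected probes, the difference in STAM-NON against Normal was 0.0657 for Pck1. With spike-in centring, the difference in STAM-NON against Normal was 0.20 for Pck1, 0.11 for Cry2, 0.0154 for Foxo1 and 0.0900 for Hnf4a. With quantile normalisation, the difference in STAM-INS against STAM-NON was -0.0675 for Fbp1. With spike-in centring, the difference in STAM-INS against STAM-NON was -0.0689 for Fbp1, -0.0226 for Hnf4a and -0.0201 for Irs2. With quantile normalisation, the difference in STAM-INS against Normal was 0.12 for Hnf4a. With the 75th percentile over detected probes, the difference in STAM-INS against Normal was 0.0363 for Hnf4a. With spike-in centring, the difference in STAM-INS against Normal was 0.0674 for Hnf4a. With arrays left out 1 at a time, differences ran as follows. In STAM-NON against Normal the range was -0.25 to 0.17 for Pck1, -0.0919 to 0.59 for G6pc, -0.0267 to 0.21 for Fbp1, -0.20 to 0.47 for Irs2 and -1.08 to 0.0712 for Nr0b2. In STAM-INS against STAM-NON the range was -0.0626 to 0.17 for Fbp1, -0.18 to 0.15 for Pcx, -0.28 to 0.20 for Slc37a4, -0.45 to 0.0145 for Ppargc1a, -0.34 to 0.0704 for Creb3l3, -0.13 to 0.0772 for Crtc2, -0.16 to 0.71 for Fgf21, -0.23 to 0.66 for Irs2, -0.0464 to 0.32 for Mdh1, -0.11 to 0.0433 for Mpc2 and -0.87 to 0.27 for Nr0b2. In STAM-INS against Normal the range was -0.0722 to 0.26 for Pcx, -0.26 to 0.0144 for Hnf4a and -0.0365 to 0.77 for Irs2.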
